A study of Mus musculus with 8 samples.

Results

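STAT and JAK genes encode the kinases and transcription factors through which many cytokine receptors signal, and the regions of FOS binding around 9 of them are described here: Stat2, Stat3, Stat4, Stat5a, Stat5b, Stat6, Jak1, Jak2 and Tyk2. FOS, which pairs with JUN proteins to form AP-1, was mapped by chromatin immunoprecipitation and sequencing in cortical microglia, collected by cell sorting from 4 mice of postnatal day 30. Each mouse had received the cytokine IL-33 by unilateral intracerebroventricular injection 4 h earlier and gave 1 FOS library and 1 input library. Vehicle-injected mice were not analysed here, and strain, sex and cell number are not stated in the labels. A region belonged to a member when its centre lay inside the gene body on mm10 or at most 100 kb outside it. Of 32773 regions in the deposited table, 100 met this rule, and the farthest region inside the rule lay 75102 to 93334 bp from its member (scores 10.5 to 39.8), against 101456 to 161668 bp for the first region beyond it (scores 3.92 to 36.4).

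As background, a cytokine receptor brings together JAK kinases bound to its tails, the kinases phosphorylate the receptor and the STAT proteins that dock on it, and STAT dimers move to the nucleus and bind DNA. JAK1, JAK2 and TYK2 serve overlapping sets of receptors, while the STATs differ by cytokine: STAT2 acts in type I interferon responses, STAT3 downstream of IL-6 and IL-10, STAT4 of IL-12, STAT5A and STAT5B of GM-CSF and IL-2 family cytokines, and STAT6 of IL-4 and IL-13. The IL-33 receptor itself signals mainly through MYD88, NF-kappaB and MAP kinases, and microglia use JAK-STAT signalling in their responses to interferons and interleukins.

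Each region of the table carries a class, a number of calls and a score. The authors had merged their list of FOS peaks with a second list, here the IL-33 list, whose column is named for IL-33 against vehicle and whose assay no label or header states. Regions with peaks of both lists are shared, those with a peak of 1 list FOS-only or IL-33-only. The number of calls, 1 to 4, ends the name of a FOS peak, and its range makes it read as how many of the FOS libraries contained the peak. The score is the deposited statistic, corrected for the zeros that peaks of the IL-33 list are taken to add to the average. Its scale is not given, so it only ranks regions within this table. The table has no value per library, so sequencing depth is unknown, no value has an error between mice and no test was made. Intervals are exact Clopper-Pearson 95% intervals, or order-statistic intervals for medians, and cover counting error only.

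All 9 members had at least 1 FOS region in their window, as did 79.5% of the 21887 coding genes. The windows held 97 FOS regions, of which 92 were FOS-only and 5 shared, and 3 further regions were IL-33-only. Members' windows overlap: 13 of the 97 FOS regions lay in the windows of 2 or more members, so the genes are not independent. For 37 of the 97 a member was also the nearest protein-coding gene, and for the other 60 it was another gene. A FOS region nearest to the gene itself was present for 8 of 9 members, against 50.6% of coding genes, with Stat2 as the member without. Per 100 kb of window the 9 members had a median of 5.28 FOS regions, against a median of 1.90 over all coding genes. Lengths, expression and open chromatin of the genes differ, and their part in these counts was not tested.

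**Figure D1:**
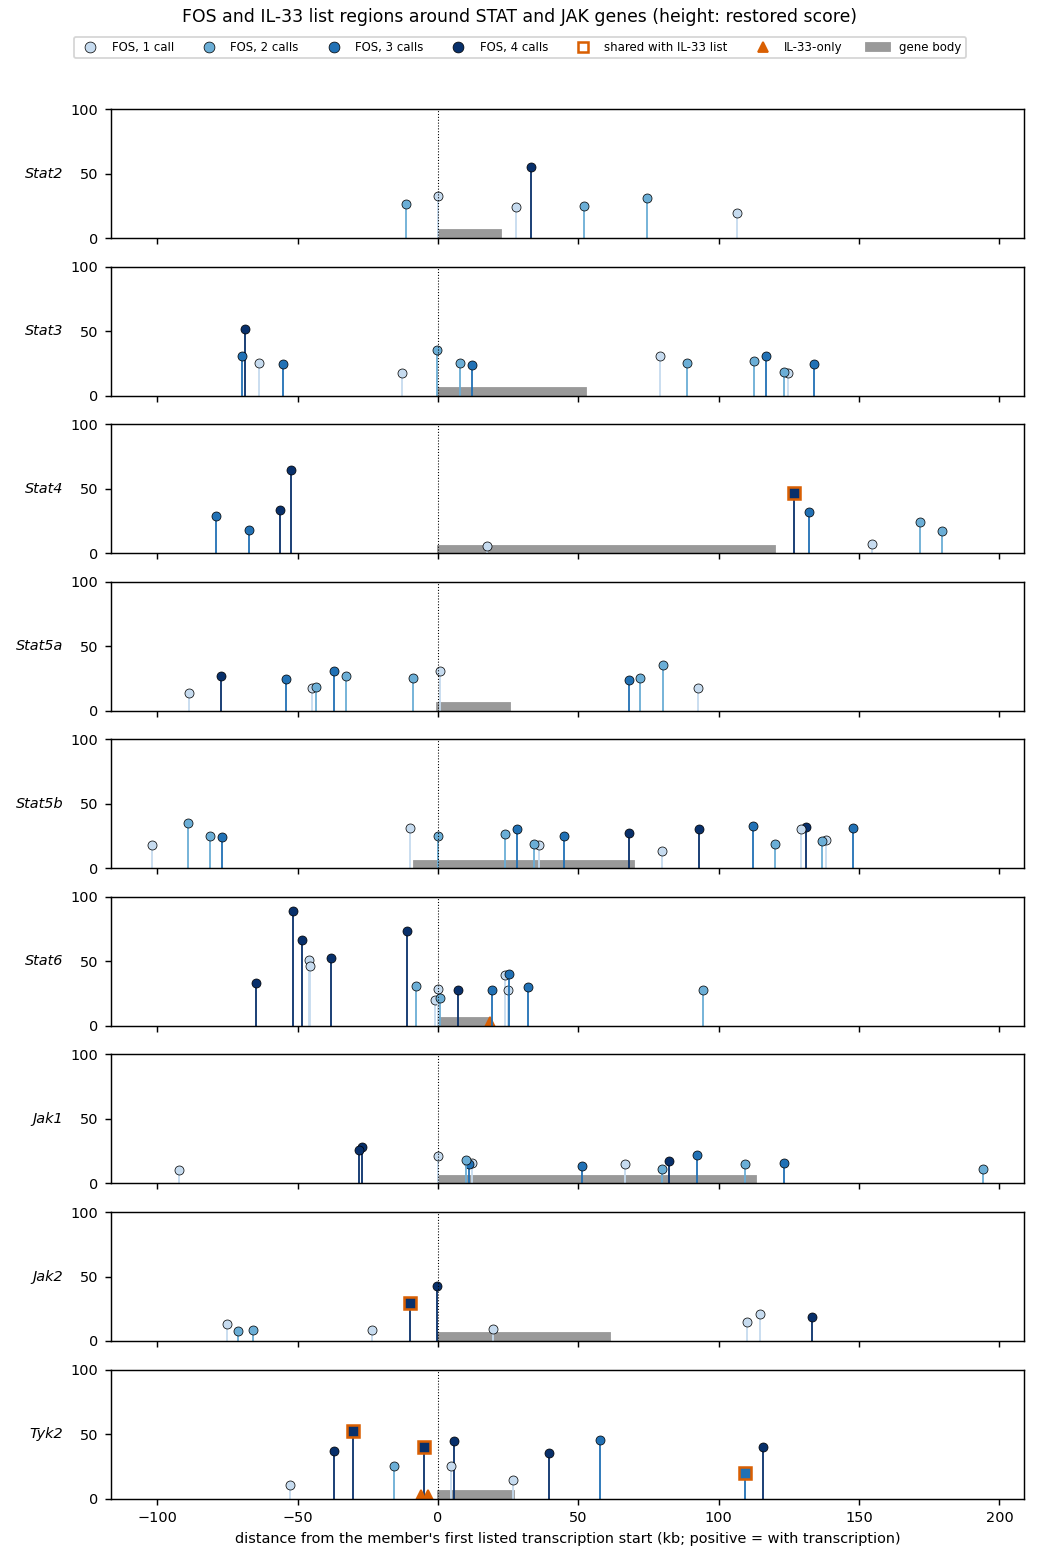
Regions in the 100 kb window of each member, by distance from the member's first listed start (kb, positive with transcription; y axis: restored score). Circles are FOS-only regions shaded by number of calls, squares with an orange edge are shared regions, triangles at the base are IL-33-only regions (which have no score) and the grey bar is the gene body; the tallest region, at 89.2, lies upstream of Stat6, and no Jak1 region exceeds 28.2.

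FOS regions stood within 1 kb of a listed start of 7 members, and at 6 of these a region overlapped the listed promoter sequence. The share of all coding genes with such a region at their own start was not computed, so these 2 counts have no like value beside them. The region of Jak2 ended upstream of its listed promoter. Within 1 kb of a listed start of the member itself lay 10 FOS regions, 3 of them at Stat6, 2 at the 2 separate starts of Stat5b and 1 each at Stat2, Stat3, Stat5a, Jak1 and Jak2. Of these 10, 5 came from 1 call, 3 from 2 calls, 1 from 3 calls and 1 from 4 calls. Over all FOS regions within 1 kb of a listed coding start, 36.7% came from 1 call and 17.6% from 4. The scores of the 10 ran from 20.0 to 42.5 with a median of 29.7. None of the 10 was in the IL-33 list. Neither was any of the 5934 FOS regions within 1 kb of a listed coding start (0%). This absence is thus shared by all genes with a listed start. Of 2777 IL-33 list regions, 23 lay within 3 kb of a listed coding start, and the median distance was 30630 bp. Stat4 and Tyk2 had no FOS region within 1 kb of a listed start.

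Of 12 listed promoters of the members (250 bases before to 50 after each start, RefSeq, build GRCm38.p6), 7 overlapped a FOS region, against 20.3% of 32851 promoters of all genes. The following 3 are shown because each overlaps a FOS region and holds a match to a motif searched on both strands, in capitals, with positions counted from the start base as 0. Stat2 is at chr10:128270248-128270547 (plus strand), and its match to the interferon response core, a pair of GAAA repeats 2 bases apart found here on the minus strand, begins at -222. Stat3 is at chr11:100939491-100939790 (minus strand), and its match to the ETS core GGAAGT begins at -57, outside the FOS region by 34 bp. Jak1 is at chr4:101265174-101265473 (minus strand), and its match to the cAMP response element TGACGTCA, a motif that was searched after the sequence had been read, begins at -101. A Stat5b promoter meets the same rule and is printed further on beside that of Stat5a.
Stat2: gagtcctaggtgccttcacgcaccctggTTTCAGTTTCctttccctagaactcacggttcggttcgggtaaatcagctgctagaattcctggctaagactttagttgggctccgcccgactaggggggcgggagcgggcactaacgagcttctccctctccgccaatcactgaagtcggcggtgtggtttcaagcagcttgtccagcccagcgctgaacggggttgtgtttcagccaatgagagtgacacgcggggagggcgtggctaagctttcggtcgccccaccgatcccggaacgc
Stat3: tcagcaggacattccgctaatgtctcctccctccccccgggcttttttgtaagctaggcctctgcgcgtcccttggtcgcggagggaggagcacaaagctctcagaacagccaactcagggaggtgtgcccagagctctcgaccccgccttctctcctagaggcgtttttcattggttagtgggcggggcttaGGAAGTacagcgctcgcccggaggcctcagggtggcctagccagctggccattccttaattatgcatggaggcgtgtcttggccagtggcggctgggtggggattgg
Jak1: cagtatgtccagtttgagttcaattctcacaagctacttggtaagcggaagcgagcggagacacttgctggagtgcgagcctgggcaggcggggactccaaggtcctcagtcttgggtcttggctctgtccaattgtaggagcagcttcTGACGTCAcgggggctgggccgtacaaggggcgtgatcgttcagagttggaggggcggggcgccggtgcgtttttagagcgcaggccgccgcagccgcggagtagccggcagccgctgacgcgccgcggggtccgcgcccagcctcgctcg

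The AP-1 letters TGANTCA were in 0 of the 12 member promoters, and they were in 7.81% of all promoters and in 5.27% of the 6655 promoters that overlapped a FOS region. The STAT dimer letters TTCNNNGAA were in 0 of 12 as well, against 8.30% of all promoters. The interferon response core was in 2 of 12, against 3.44% of all promoters. The ETS core, which PU.1 and other ETS factors can bind, was in 5 of 12, against 23.8%. TGACGTCA, which ATF, CREB and some AP-1 dimers can bind, was in 1 of 12, against 1.79%. Among the 7 member promoters that overlapped a FOS region, the interferon response core was in 1, against 3.44% of all promoters overlapping one, the ETS core in 2, against 37.2%, and TGACGTCA in 1, against 3.85%. No match says only that these letters are not in these windows.

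The neighbouring genes Stat5a and Stat5b each carried a FOS region over a start that shares a stretch of sequence. The pair is shown for the longest run of identical bases, in capitals, which is 16 bases long and lies at -32 to -17 in Stat5a and at -23 to -8 in Stat5b. The Stat5a promoter is at chr11:100860234-100860533 (plus strand) and lay under a 1-call region scoring 31.0. The Stat5b promoter belongs to the farther downstream of its 2 listed starts, at chr11:100822521-100822820 (minus strand), under a 3-call region scoring 30.9. It also holds a match to the ETS core GGAAGT, which begins at -84 and is left in lower case. The other Stat5b promoter with a FOS region shared a run of at most 11 bases with Stat5a. The pair was chosen after the sequences had been read.
Stat5a: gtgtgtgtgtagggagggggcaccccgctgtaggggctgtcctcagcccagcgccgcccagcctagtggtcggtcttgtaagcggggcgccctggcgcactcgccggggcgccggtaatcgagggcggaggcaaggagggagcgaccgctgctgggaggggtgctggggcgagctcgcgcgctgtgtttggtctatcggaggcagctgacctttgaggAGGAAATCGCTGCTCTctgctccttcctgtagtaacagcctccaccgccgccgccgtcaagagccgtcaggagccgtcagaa
Stat5b: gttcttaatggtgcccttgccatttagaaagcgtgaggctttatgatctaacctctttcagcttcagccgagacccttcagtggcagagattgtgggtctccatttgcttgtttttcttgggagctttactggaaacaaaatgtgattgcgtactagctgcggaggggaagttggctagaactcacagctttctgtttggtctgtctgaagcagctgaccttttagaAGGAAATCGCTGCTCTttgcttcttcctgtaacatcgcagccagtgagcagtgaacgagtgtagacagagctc

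Stat2, Stat3, Stat5a, Stat5b and Jak1 had no region of the IL-33 list in their windows. Stat2 (chromosome 10, 128270498 to 128292853) had 7 FOS regions, with scores from 19.4 to 55.0 and a median of 26.6. Its start carried a 1-call region at 128270245 to 128270565 scoring 33.0, higher than 97.3% of all 1-call regions. The centre of that region also lay inside Apof, which encodes an apolipoprotein, 93 bp outside the listed body of Stat2, and this is why Stat2 had no region nearest to it (Apof was named after its values were seen). The highest region in the window, at 55.0 from 4 calls, lay inside Pan2, which encodes an enzyme that shortens poly(A) tails, 10688 bp from Stat2.

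Stat5b, Stat5a and Stat3 lie side by side on chromosome 11, 347 and 1637 bp apart, and share most of their regions. Together they had 25 distinct FOS regions, of which 11 lay in the windows of all 3 genes, 2 in the windows of 2 and 12 in the window of 1. Inside their bodies lay 10 regions, 7 in Stat5b, 2 in Stat3 and 1 in Stat5a, with scores between 17.8 and 31.0 and a median of 25.1. Of these 10, 1 came from 4 calls, at 100782319 to 100782676 inside Stat5b, and it scored 27.1, higher than 24.9% of all 4-call regions. Stat3 (100886806 to 100939594) had its own highest region 251 bp upstream of its start, at 100939631 to 100939951, with a score of 35.6 from 2 calls, higher than 94.8% of 2-call regions. Further regions inside Stat3 scored 25.1 and 24.1. The highest score in the Stat3 window, 51.5 from 4 calls, lay 68688 bp away and nearest to Atp6v0a1, a subunit gene of the vacuolar proton pump. With 21 FOS regions Stat5b (100780731 to 100859004) had more than 99.1% of coding genes, and its window also held 11 other coding genes. Stat5a (100859351 to 100885169) had 13 FOS regions in its window, of which 1, at its start, was nearest to Stat5a.

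The highest single score in the 9 windows, 89.2, was in that of Stat6. The window (body at chromosome 10, 127642955 to 127660987) held 18 FOS regions, with scores from 20.0 to 89.2, and 1 IL-33-only region. Its median score was 31.9, below the 36.2 of the Tyk2 window. Nearest to Stat6 itself were 6 of the 18. The highest of these lay 10883 bp upstream of the body, at 127631896 to 127632248, with a score of 73.3 from 4 calls, higher than 95.8% of 4-call regions. The other 5 scored 30.8 (2 calls), 28.5 (1 call, at the start), 27.8 (4 calls, inside the gene), 21.4 (2 calls) and 20.0 (1 call). The upstream region thus scored far above the other 5. It lay about midway between Stat6 and the next coding start upstream, however, so its assignment to Stat6 is narrow. The 6 regions farther upstream lay inside Lrp1, which encodes an endocytic receptor, with 4-call scores of 89.2, 66.4, 52.3 and 33.1 and 1-call scores of 51.0 and 46.3. At the other end, an IL-33-only region at 127661336 to 127661836 lay 599 bp past Stat6 and inside Nab2, which encodes a corepressor of EGR factors. A FOS-only region scoring 27.7 from 3 calls followed 207 bp farther on.

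Stat4 had the longest body of the 9 members, at 120084 bp (chromosome 1, 51987106 to 52107189). It had 1 FOS region inside it, as Stat5a and Jak2 had, while Stat2 had 0. The Stat4 region came from 1 call and had a score of 5.85, and 5.90% of all FOS regions scored lower. The window nonetheless held 10 FOS regions, 1 of them shared with the IL-33 list.

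Jak1 had the most FOS regions nearest to itself among the 9 members, and the highest score in its window was the lowest of the 9 windows. Its window (body at chromosome 4, 101151974 to 101265282) held 15 FOS regions and 1 other coding gene besides Jak1, and 12 of the 15 were nearest to Jak1, more than in 98.8% of coding genes. Scores ran from 10.5 to 28.2 with a median of 16.1. Of the 12, 9 lay inside the gene, 1 at its start (21.1, 1 call, higher than 81.8% of 1-call regions) and 2 upstream, at 101292012 to 101292402 and 101293057 to 101293433, centred 26984 and 28022 bp from the start. This upstream pair came from 4 calls and scored 28.2 and 25.6. The third 4-call region lay inside the gene and scored 17.8, higher than 5.88% of 4-call regions. The next lowest of the highest scores in the 9 windows was 35.6, for Stat5a and Stat5b, from 1 region that lay nearest to Stat3. Among regions nearest to the gene itself, the highest score was lower for Stat4, at 5.85, than for Jak1, at 28.2. Of coding genes with a FOS region in the window, 35.7% had a highest score below that of Jak1.

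Jak2 had 10 FOS regions, of which 3 came from 4 calls, and the highest score among the other 7 was 20.6, from 1 call. Its start (body at chromosome 19, 29251803 to 29313095) was preceded by a 4-call region at 29251168 to 29251531, centred 454 bp upstream, with a score of 42.5. At 10130 bp upstream of the start lay a shared region at 29241423 to 29241923, with a score of 29.6 from 4 calls and 38 bp between the centres of its FOS and IL-33 list peaks. It was the only shared region with a member as its nearest gene, so 1 of 9 members had such a region, against 4.34% of coding genes. The other regions nearest to Jak2, at 8.47 and 9.29, each came from 1 call. The third 4-call region in the window lay 72054 bp past the gene and scored 18.8.

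Tyk2 (chromosome 9, 21104068 to 21131393) held most of the IL-33 list regions. Its window had 12 FOS regions, with scores from 10.5 to 52.3 and a median of 36.2, and 6 of the 12 came from 4 calls. It held 3 shared and 2 IL-33-only regions, so that 3 of the 5 shared regions around the 9 members lay here. Inside the gene a 4-call region at 21125442 to 21125910 scored 44.4, and 1-call regions scored 25.6 and 14.7. In the 8038 bp between Tyk2 and Cdc37, which encodes a cochaperone that delivers kinases to HSP90, lay 3 regions in a row. An IL-33-only region at 21134629 to 21135129, nearest to Tyk2, was followed after 291 bp by a shared region at 21135420 to 21136826, which was merged from 3 IL-33 list peaks and 1 FOS peak of 4 calls scoring 39.9. After a further 339 bp came an IL-33-only region at 21137165 to 21137665. The other shared regions lay near Pde4a, a cAMP phosphodiesterase gene (52.3, 4 calls, 30080 bp from Tyk2), and inside Icam1, an adhesion molecule gene (19.6, 3 calls, 82038 bp away).

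The IL-33 list was represented around the members about as often as in the whole table. Of the 97 FOS regions, 5 (5.15%, 95% interval 1.69 to 11.6) were shared, against 4.92% of all 31473 FOS regions (4.68 to 5.16). Members with a shared region in the window were 3 of 9 (Stat4, Jak2 and Tyk2), against 14.7% of coding genes, and members with an IL-33-only region 2 of 9 (Stat6 and Tyk2), against 11.2%. Nearest to the gene itself an IL-33-only region was present for 1 of 9, against 3.13%. Away from listed starts, where nearly all of the IL-33 list lies, 7.81% of 64 FOS regions were shared, against 6.58% of 23053. These regions lay over 3 kb from a listed coding start.

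FOS regions from 4 calls lay in all 9 windows, against 49.1% of coding genes, and nearest to the gene itself for 5 of 9 members (Stat5b, Stat6, Jak1, Jak2 and Tyk2), against 17.5%. Of the members' 97 FOS regions, 26 came from 4 calls (26.8%, 18.3 to 36.8), against 22.9% of all FOS regions (22.5 to 23.4). Among regions with scores from the median up the direction turned, at 36.9% against 41.5%. Within 10 kb of the members the share was 16.7%, but the share within 10 kb of all coding genes was not computed. The 1-call share was 30.9% (21.9 to 41.1), against 39.8% (39.2 to 40.3). A coding start lay within 1 kb of 23.7% of the members' regions (15.7 to 33.4), against 19.4% (19.0 to 19.9). The interval of the members' share covers the whole-table value in all 3 of these comparisons.

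**Figure D2:**
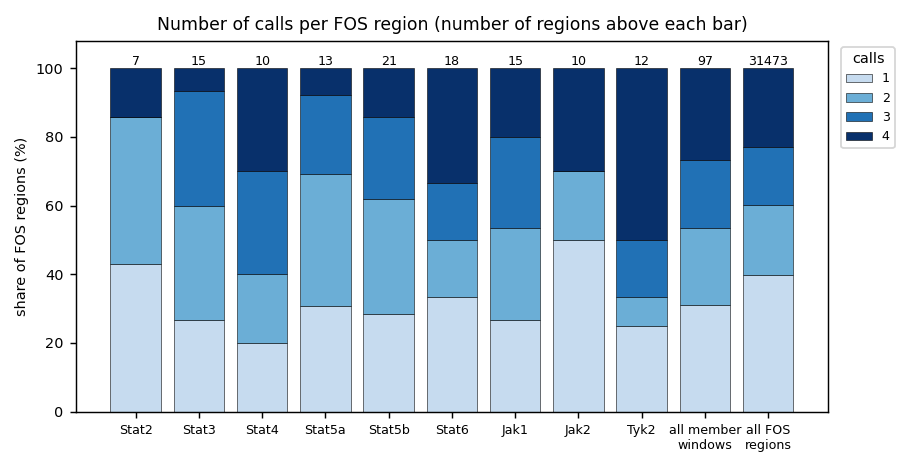
Share of FOS regions (y axis, %) by number of calls for each member, for the 97 regions of all members and for all 31473 FOS regions, with the number of regions above each bar. Tyk2 has the largest 4-call share (6 of 12) and Jak2 the largest 1-call share (5 of 10).

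Scores in the members' windows had a median of 25.6 (23.8 to 28.5), against 20.2 over all FOS regions (20.0 to 20.4). Since the score goes with the number of calls, each region was set against all FOS regions of the same number of calls. Of the 97 regions, 34 (35.1%) were below the median for their number of calls. Outside the Jak1 and Jak2 windows it was 16 of 72, but these 2 windows were set apart with their counts known. By member, the regions below it were 12 of 15 at Jak1, 6 of 10 at Jak2 and 5 of 10 at Stat4. At the other 6 members they ran from 0 of 7 at Stat2 and 2 of 18 at Stat6 to 6 of 21 at Stat5b. The 4-call region of Stat5a is also 1 of the 3 at Stat5b. Of the 4-call regions, 3 of 3 at Jak1, 3 of 3 at Stat5b, 1 of 1 at Stat5a and 2 of 3 at Jak2 were below the median. The same count was 2 of 6 at Stat6, 1 of 3 at Stat4, 1 of 6 at Tyk2 and 0 of 1 at Stat2 and at Stat3. These counts have no test.

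**Figure D3:**
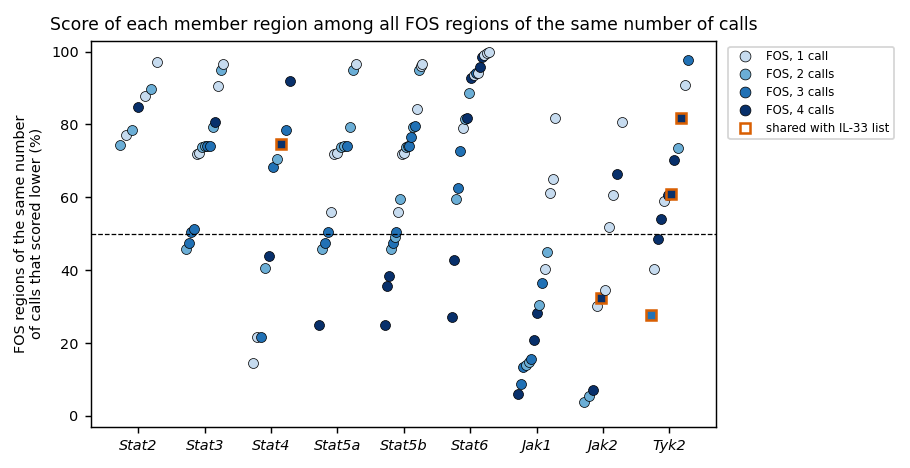
For each FOS region of each member, the share of all FOS regions with the same number of calls that scored lower (y axis, %); shading gives the number of calls, orange edges mark shared regions and the dashed line is the median. Most Jak1 regions lie below the line (12 of 15), while all 7 of Stat2 and 16 of 18 of Stat6 lie above it.

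The rest of the pathway was taken as 41 further genes of receptors, inhibitors and partners. Of these, 40 had a FOS region in the window (79.5% of coding genes), 34 a 4-call region (49.1%), 16 a shared region (14.7%) and 13 an IL-33-only region (11.2%), and Osmr was the gene without a FOS region. The median number of FOS regions was 12, against 5 over all coding genes. Among 18 inhibitors and phosphatases, 8 had a shared region in the window (14.7% of coding genes). Of the 18, 6 had one nearest to the gene itself (4.34% of coding genes): Socs3, Cish, Ptpn1, Ptpn6, Ptpn11 and Ptprc. Socs1 and Socs2 had one farther away. Socs3, whose protein blocks signalling by the IL-6 receptor, had the highest score of the pathway (117, FOS-only, 19375 bp away). Its window held 4 shared regions, the highest at 56.8, and 2 of the 4 were nearest to Socs3. The phosphatase genes Ptpn1 and Ptpn6 had the highest of their shared regions inside them, at 44.4 and 51.9, each from 4 calls. SOCS proteins and some PTPN proteins act to end JAK-STAT signals.

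Among 21 receptor genes, 8 had a shared region in the window, against 14.7% of coding genes: Il6ra, Il6st, Ifngr2, Il10ra, Il4ra, Il13ra1, Il21r and Csf2rb. The windows of Il4ra and Il21r held the same shared region, so these 2 genes are not independent. A shared region was nearest to the gene itself for 3 of the 21, Il10ra, Il13ra1 and Il21r, against 4.34% of coding genes. The highest receptor scores stood in the windows of Il6ra, the IL-6 receptor (95.5, inside the gene), of Ifnar2 and Il10rb (90.4, 1 region shared by their windows and nearest to Ifnar2, a type I interferon receptor chain) and of Ifngr1 (74.0, 81769 bp away and nearest to another gene). Of the remaining 2 genes, Irf9, which encodes a DNA-binding partner of STAT2, had 17 FOS regions and Jak3, a kinase gene, had 10, none of those of Jak3 from 4 calls.

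**Figure D4:**
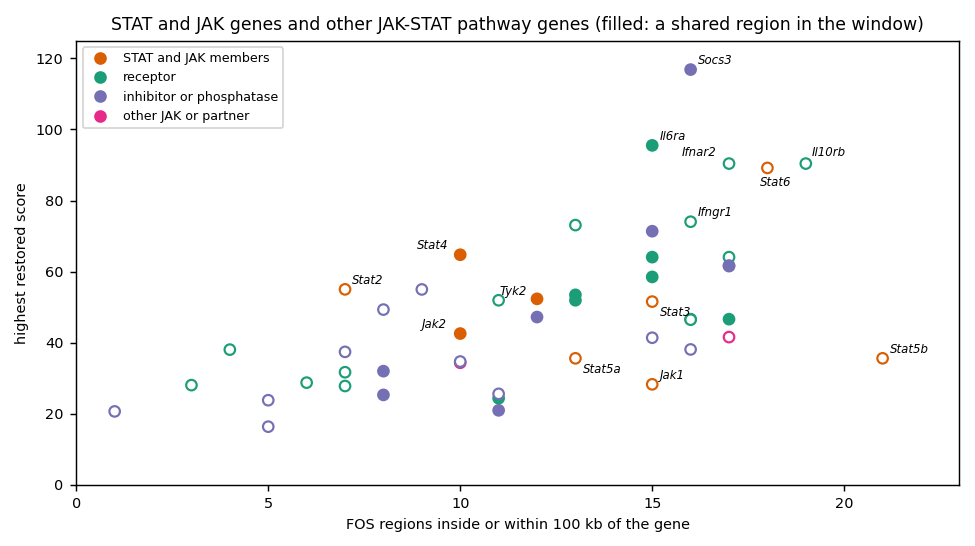
Number of FOS regions in the 100 kb window (x axis) and highest restored score (y axis) for the 9 STAT and JAK members (orange) and 40 other pathway genes with a FOS region, coloured by role and filled where the window holds a shared region. Socs3 is highest at 117, Stat6 is the highest member at 89.2, and Stat5b has the most regions (21) with a highest score of 35.6.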

How the data were processed

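FOS chromatin immunoprecipitation and input libraries came from sorted cortical microglia of 4 mice. The submitters' processing notes name Bowtie2, HOMER, mm10 and GRCm38; per the file headers, the authors merged their FOS peaks and the IL-33 list with HOMER's mergePeaks into 1 table of 10 columns, and neither states how peaks were called or inputs used. The deposited score is a statistic averaged over merged peaks. All 1300 IL-33-only regions were at 0, so the score was multiplied by the number of merged peaks and divided by the number of FOS peaks. A region with several FOS peaks took the largest number of calls. The deposited number of merged peaks, a whole number per region, equalled the number of names in 32773 regions.

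Gene bodies (21887 coding genes, 21 main chromosomes; 3 regions elsewhere left out) came from RefSeq GRCm38.p6. Starts came from the promoter table and covered 17492 coding genes on 20 chromosomes; distances to starts use the nearest listed start and leave out regions on other chromosomes. Tools were Python 3.11.15, pandas 2.3.3, scipy 1.17.1 and matplotlib 3.10.9. The distance rules were tested on simulated regions. The score rule was checked only as arithmetic, so whether peaks of the IL-33 list add zeros in shared regions was not tested. No column gives values per sample, so there were no tests. Named genes are the 9 members, the pathway's 5 highest scores and all its genes with a shared region, and genes nearest to a shared, IL-33-only or highest-scoring member region. The alternatives were other windows, nearest genes, overlap, call and score filters and the deposited score. Members, lists and rules were chosen with earlier results of these data known. A gene of the pathway list is left out of its counts, and it and some genes nearest to member regions are not reported here.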

Additional observations from a re-analysis of the deposited data

How the results depend on the processing

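Counts follow the window. With 10 kb the FOS regions numbered 42, with 200 kb 149, with nearest genes only 37 and with 4-call regions only 26; with 50 kb (66), with overlap in place of the centre (97), with 2 or more calls (67) or with FOS regions in the upper part of all scores, from the median up (65), the count moved less. Shared regions numbered 2 within 10 kb, 11 within 200 kb and 1 by nearest gene, IL-33-only regions 9 within 200 kb and 1 by nearest gene, and members with a shared region 1 by nearest gene. With 4-call regions only, 15.4% of FOS regions were shared (against 11.5% in the whole table), the median score 38.5 (35.7) and 9 regions were nearest to a member. The 4-call share was 16.7% within 10 kb, 38.8% with 2 or more calls (38.0% of all FOS regions) and 36.9% with scores from the median up (41.5%), where the median score was 30.8 (29.7) and 22 regions were nearest to a member. The higher 4-call share in member windows than in the whole table thus turned with the score filter, and the cause was not tested. For the 10 kb window no share over all coding genes was computed, so its 16.7% has no like value beside it. As deposited, the score changed the highest region of 1 member, Tyk2 (45.2). Within 10 kb, 9 of the 41 pathway genes had a shared region. The 4-call share among 4-call regions and the count of nearest regions among nearest regions are fixed and were not run. No paired analysis was possible because the table has no values per library, and for the same reason no mouse could be left out. Depth per library is unknown and limits every count.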

Other observations

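The Jak2 window reached Cd274, the gene of the checkpoint ligand PD-L1, which interferon induces through JAK and STAT proteins. A 1-call region at 29366266 to 29366536 scoring 20.6 lay where the bodies of Cd274 and Plgrkt overlap, and a 4-call region at 29384978 to 29385320 inside Cd274 scored 18.8, higher than 7.07% of 4-call regions. Both were FOS-only. In the Stat2 window a 1-call region at 128298291 to 128298611 scoring 23.8 lay nearest to Il23a, the IL-23 subunit gene, 367 bp outside it. These genes were named after their values were seen.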
